A study of Mus musculus with 12 samples.

Results

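*Dapl1* encodes death-associated protein-like 1, a small protein related to DAP, a regulator of autophagy. It was known early on from differentiating epithelia. In CD8+ T cells it is found in naive-like and memory-like populations, where it has been linked to restraint of NFATc2, a transcription factor that calcineurin activates after T cell receptor signaling. NFAT factors, alone or with AP-1, drive cytokine genes and, under persistent stimulation, genes of inhibitory receptors. The gene was selected on its measured values, since it stood out for its lower RNA and promoter accessibility without UTX. Its own differences are therefore given as a description, with no test. It is 1 of 25860 genes listed in the RNA-seq data, and 10 of the 23932 listed ATAC-seq peaks carry its name.

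The libraries came from CD8+ T cells of pancreatic lymph nodes of female NOD mice, a strain that develops autoimmune diabetes. All mice carried the NY8.3 T cell receptor transgene, which recognizes the islet antigen IGRP, so the cells largely share a specificity and do not represent a natural repertoire. In UTX TCD mice a floxed *Kdm6a*, which encodes the histone H3K27 demethylase UTX, was deleted by Cre under the *Lck* promoter, active in T cells from the thymus onward. WT controls were littermates lacking Cre. The series describes the sorted cells as Ly108+CXCR6- and the methods of the study as Ly108+CD39-, and both gates were meant to take stem-like progenitors. No age was given for the mice of these libraries in the sources used here, although the paper gives one for its transfer experiment with this line. Each genotype had 3 RNA-seq and 3 ATAC-seq libraries, so p-values measure the spread between these samples. In bulk RNA, fewer cells of a kind and less RNA per cell cannot be told apart.

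RNA values were normalized counts, that is reads per gene divided by 1 scaling factor per library. Values written with ± are a mean and the SD over the libraries of a genotype (n = 3). The whole reads behind them summed to 146456724, 144503203 and 193568919 in WT replicates 1 to 3 and to 61512402, 175462433 and 187275082 in UTX TCD replicates 1 to 3. *Kdm6a* itself had 28365, 28949 and 29172 normalized counts in the WT libraries and 24158, 24792 and 24579 in the UTX TCD libraries. Every UTX TCD value lay under every WT value, as in 26.1% of all tested genes. The log2 difference (UTX TCD minus WT) was -0.23 (SE 0.04, adjusted p = 0.00114 from limma). These are counts over the whole gene, so they do not show whether the floxed exon is present and check the labels only in part. *Uty*, the Y-linked homolog of *Kdm6a*, was listed at 0 in the 3 WT libraries and at no more than 2.25 normalized counts in the UTX TCD libraries.

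A gene was called where its adjusted p from limma was under 0.05 and its log2 difference exceeded 0.5 in size. Of the 14459 genes with a mean of at least 10 normalized counts, calls without UTX were higher for 1518 (10.5%) and lower for 1020 (7.05%). Both other tools, edgeR and DESeq2, were run without WT replicate 1, so a call that differs with them also lacks that library. None of 6 markers of CD8+ T cells was called by limma, edgeR or DESeq2. In limma 4 had an unadjusted p under 0.05, the same 4 had an adjusted p under 0.05, and they missed only the limit on the log2 difference. By adjusted p alone, 2924 of the 14459 tested genes were higher and 2963 lower. *Cd8a*, the CD8 alpha chain, was at 272155 ± 2012 in WT and 298501 ± 23849 in UTX TCD cells. *Cxcr6*, the chemokine receptor that the gate described for the series excludes, fell from 12033 ± 2146 to 5658 ± 355, a log2 difference of -1.07 (SE 0.12, adjusted p = 0.000131 from limma). *Slamf6*, which encodes Ly108, had 28378 ± 5425 and 34357 ± 2989 and was not called (adjusted p = 0.089 from limma). *Entpd1*, which encodes CD39, was low in both genotypes, with 17.3 ± 10.7 and 7.24 ± 4.82. *Cd44*, a marker of antigen experience, was at 11830 ± 377 and 13342 ± 855, with a log2 difference of 0.17, short of a call.

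Markers of other cells were scarce next to those of CD8+ T cells, and some differed between the genotypes. The 6 B cell markers summed to 2957, 2442 and 2805 normalized counts in the WT libraries and to 1226, 1083 and 1008 in the UTX TCD libraries. Most of that was *Cd79b*, which was called lower, while *Ms4a1* was called higher at 11.4 ± 7.36 against 41.0 ± 28.1. *Pax5* and *Ebf1*, which define B cells, were too low to test. The 4 NK cell markers summed to 270, 251 and 228 in WT and to 121, 101 and 151 in UTX TCD libraries. *Gzma*, at 214 ± 19.8 in WT and 102 ± 11.2 in UTX TCD cells, made up most of each sum and was called lower. *Klrb1c* was not called, and *Ncr1* and *Klra8* were too low to test. *Klra8* was at 0 in the WT libraries and at 4.50, 4.80 and 9.58 in the UTX TCD libraries. The 3 CD4+ T cell markers summed to 475, 373 and 442 in WT and to 373, 350 and 344 in UTX TCD libraries; *Foxp3* was the most abundant, and *Cd4* and *Zbtb7b* were called lower. Among 8 myeloid and dendritic cell markers, which summed to 980, 964 and 789 in WT and 1244, 1003 and 1204 in UTX TCD libraries, *Cd68* was the most abundant, *Csf1r* was called lower and *S100a8* was at 0 in all 6; of the 5 tested, 4 had a log2 difference above 0 and 1 below. The 8 epithelial and stromal markers were mostly *Pecam1*, which T cells also express, and summed to 32250, 30203 and 32404 in WT and 38395, 38403 and 34404 in UTX TCD libraries. In that list *Epcam* was called higher, *Cdh1* lower, and *Krt8* had a mean of 0.330 in WT and was at 0 in all UTX TCD libraries. *Krt18*, too low to test, went the other way, with means of 1.32 in WT and 6.81 in UTX TCD cells. Those means rested on only 2, 2 and 0 reads in the WT libraries and 2, 7 and 14 reads in the UTX TCD libraries. The call of *Cd4* was lost without each library except UTX TCD replicate 2, and that of *Ms4a1* without WT replicate 1 or 3 or UTX TCD replicate 2 or 3. Neither gene was called by edgeR or DESeq2, and *Cd4* also lost its call with the same total per library and with no filter on low counts. The call of *Csf1r* was lost with DESeq2. That gene was at 24.2 ± 4.53 in WT and 6.07 ± 1.85 in UTX TCD cells, on 2, 7 and 11 UTX TCD reads. It passed the filter on low counts only through its WT libraries. *Cd68*, at 0.43 (adjusted p = 0.0377 from limma), was called higher without UTX TCD replicate 2, and *Zbtb46*, a dendritic cell factor at 0.90 (adjusted p = 0.0541), was called higher without WT replicate 1, with the same total per library and with edgeR and DESeq2. The part of other cells in the *Dapl1* difference was not tested.

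*Dapl1* had 19223, 16163 and 16644 normalized counts in WT replicates 1 to 3 and 1694, 1468 and 1272 in UTX TCD replicates 1 to 3. The genotypes did not overlap, and the lowest WT library held 9.54 times the highest UTX TCD library. Among the tested genes, 26.1% had all 3 UTX TCD libraries below all 3 WT libraries. The WT mean was 17344 ± 1646 and the UTX TCD mean 1478 ± 211, so UTX TCD cells kept 8.52% of the WT level and the linear fold was 11.7. On the log2(normalized count + 1) scale the difference was -3.56 (SE 0.10). Spread within each genotype was small next to this, with coefficients of variation of 9.49% in WT and 14.3% in UTX TCD cells. The values rested on 19406, 16371 and 21825 reads in WT and on 753, 1833 and 1725 reads in UTX TCD libraries, so even the shallowest library, UTX TCD replicate 1, counted the transcript well above a floor of 3 reads.

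*Dapl1* was an abundant transcript in WT cells and a moderate one in UTX TCD cells. Per kilobase of its 573 exonic bases, the mean was 30268 normalized counts in WT and 2579 in UTX TCD cells, where the median of tested genes was 841 and 847. By that measure, 192 of 13893 tested genes with a RefSeq length (1.38%), *Dapl1* included, reached its level in WT, and 3537 (25.5%) did in UTX TCD cells. Of all tested genes, 48 had a log2 difference as low or lower, itself included. No other RefSeq gene overlapped *Dapl1*, so its reads had no overlapping or antisense gene to be shared with in that annotation.

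**Figure D1:**
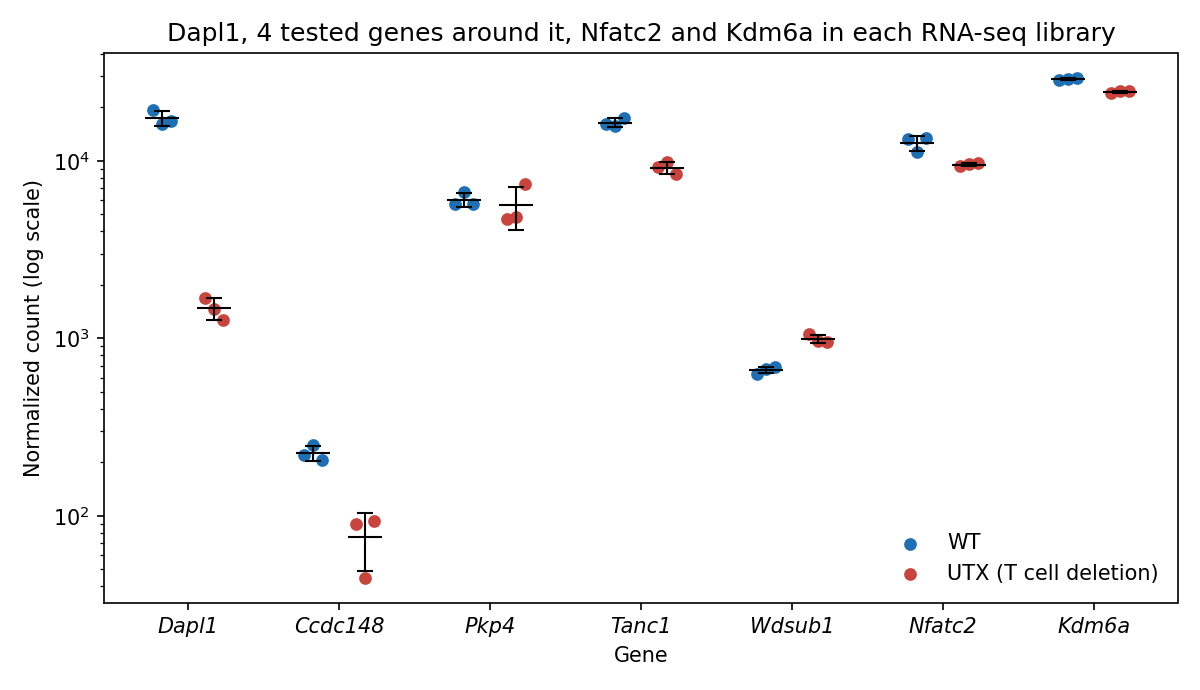
Normalized counts (log axis) of *Dapl1*, of 4 tested genes around it, of *Nfatc2* and of *Kdm6a* in each RNA-seq library of WT and UTX TCD cells; points are libraries, horizontal lines means and error bars SD (n = 3). The WT libraries of *Dapl1* sit between 16163 and 19223 and the UTX TCD libraries between 1272 and 1694.

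In the mouse genome (mm10, GRCm38) *Dapl1* lies on the plus strand of chromosome 2 from 59484653 to 59505020, with 4 exons and a coding sequence of 324 bases for 107 residues. Exon 1 spans 59484653 to 59484766 and exon 4 spans 59504711 to 59505020, and coding begins at 59484709 within exon 1. ATAC-seq, in which a transposase cuts open chromatin, gave a value for each peak as the authors' mean log2 concentration (normalized reads) of each genotype, with no SD. The listed peaks all passed a false discovery rate of 0.05 in the table, so peaks without a difference are not among them. Of the 10 *Dapl1* peaks, 8 had a lower and 2 a higher concentration in UTX TCD cells, where 31.2% of all listed peaks and 14.7% of the 2621 listed promoter peaks were lower. The median difference was -0.87 for the *Dapl1* peaks and 0.49 for all listed peaks. Since the same contrast chose the gene and the table, nothing is read from these shares.

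The promoter peak, from 59484448 to 59484848, covered the transcription start site and had 8.54 in WT and 6.07 in UTX TCD cells. Its difference of -2.47 was the lowest of the 10 and left 18.1% of the WT signal. Among the listed promoter peaks, 2 had a difference as low, itself included. In WT cells 50.7% of listed promoter peaks had its concentration or less, and in UTX TCD cells 3.01% did. The promoter peak and the RNA were both lower, with 18.1% of the signal and 8.52% of the transcript left, on scales that are not comparable. The gene was selected for both, so nothing is read from the shared direction.

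Peaks on either side of the start site were lower too. The peak from 59482509 to 59482909, 1.94 kb upstream of the start site, had 8.70 in WT and 7.44 in UTX TCD cells, a difference of -1.26. Intron 1 held a pair of peaks, the nearer from 59486442 to 59486842 with 8.55 and 7.52 (difference -1.03). The farther, from 59490321 to 59490721, had 7.45 and 6.80 (difference -0.65). In intron 3 the peak from 59498134 to 59498534 had 6.44 and 4.91, a difference of -1.54. It was the weakest of the 10 in both genotypes, and in UTX TCD cells 1.58% of all listed peaks were as low. All 5 listed peaks from 1.94 kb upstream to 13.7 kb downstream of the start site were therefore lower in UTX TCD cells.

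Farther out, the direction was mixed. The peak with the highest concentration in both genotypes, from 59474350 to 59474750 and 10.1 kb upstream, had 9.87 in WT and 10.41 in UTX TCD cells, a difference of 0.54. The other higher peak lay 43.2 kb downstream of the start site, from 59527673 to 59528073, with 8.10 and 8.91 (difference 0.81). Between that peak and the gene, the peak from 59513547 to 59513947 had 9.04 and 8.29, a difference of -0.75. The outermost downstream peak, from 59534391 to 59534791 and 49.9 kb from the start site, had 6.59 and 5.60 (difference -0.99). At the other end, 44.0 kb upstream, the peak from 59440443 to 59440843 had 8.55 and 8.22, and its difference of -0.33 was the smallest in size. The distal lower peaks were thus interleaved with the higher ones on both sides of the gene. Ordered by concentration in UTX TCD cells, the promoter peak ranked 8 of 10, below 5 intergenic peaks.

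The table's peak numbers follow the genome, and the *Dapl1* peaks span 14 of them. The other 4 numbers are not listed and were not analysed here; of these, 2 fall between 59440843 and 59474350, 1 between 59486842 and 59490321, and 1 between 59513947 and 59527673. Of 10611 gene names with a listed peak, 177 (1.67%) had at least 10, and the median was 1. All 10 peaks were 401 bases wide, and taking peaks by position within 50 kb of the gene gave 10 peaks with the same count of lower ones. The names are those of the authors' table; RefSeq has other start sites nearer to some of the distal peaks, such as that of the noncoding RNA gene *Gm39831* at 59512173, and a name does not show which gene a peak acts on.

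**Figure D2:**
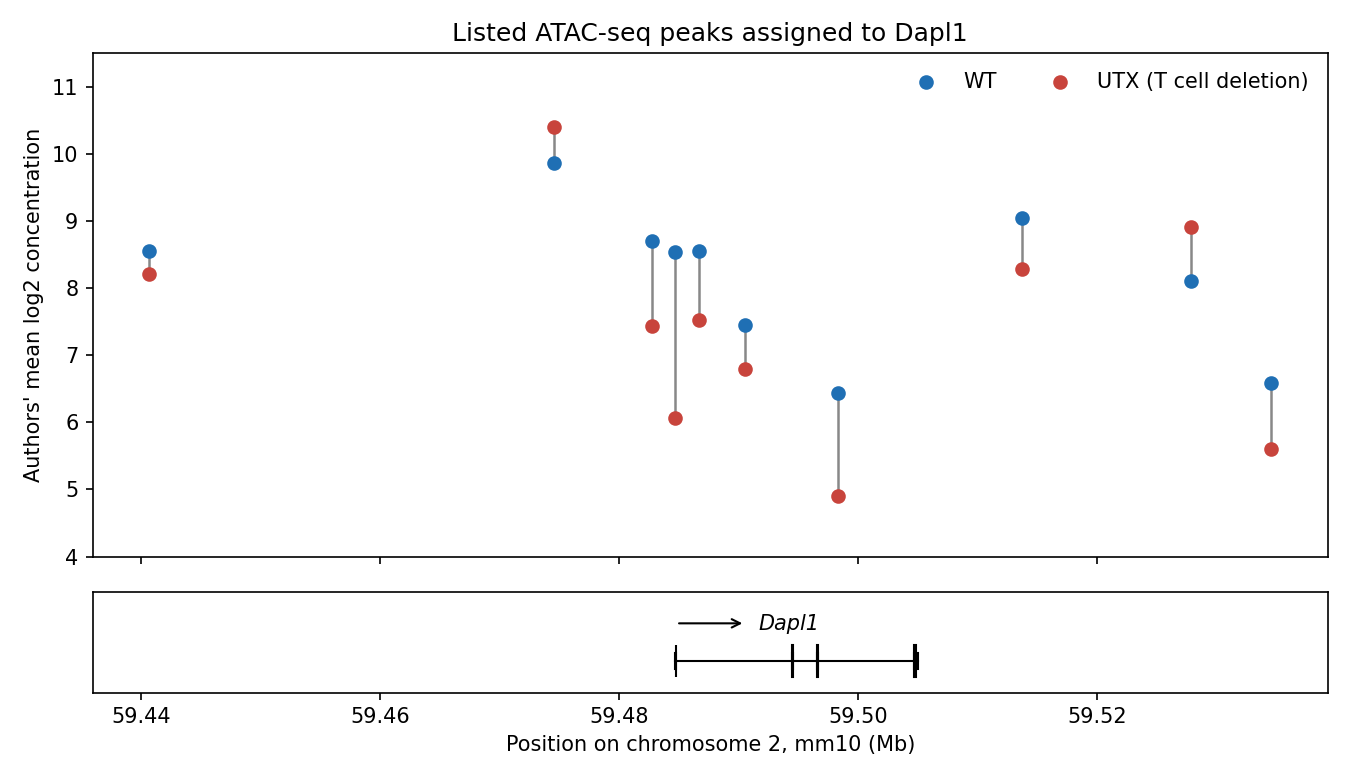
The 10 listed ATAC-seq peaks assigned to *Dapl1* by position on chromosome 2 of mm10 (x axis, Mb) and the authors' mean log2 concentration (y axis) in WT and UTX TCD cells, with a grey line joining the genotypes of each peak and the *Dapl1* exons drawn to scale under them, coding parts taller. The promoter peak moves from 8.54 to 6.07, and the peaks 10.1 kb upstream and 43.2 kb downstream of the start site are the 2 that are higher in UTX TCD cells.

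The sequences under these peaks were read from the reference, which is of the C57BL/6J strain, whereas the mice were NOD. The 250 bases before the start site are shown because the promoter peak had the lowest difference. They held 4 CpG, against a median of 6 over the same window of 32851 RefSeq promoters. Short motifs were searched on both strands. The sequence is from RefSeq (GRCm38.p6), plus strand, chr2:59484403-59484652. Its capitals mark a KLF/SP box, spelled GGGCGG, and further on a TATA box.
Promoter: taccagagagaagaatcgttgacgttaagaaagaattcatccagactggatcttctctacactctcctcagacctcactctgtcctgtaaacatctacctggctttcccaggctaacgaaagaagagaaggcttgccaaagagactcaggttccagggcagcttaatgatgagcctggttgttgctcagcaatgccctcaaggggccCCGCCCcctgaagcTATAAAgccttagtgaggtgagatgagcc

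The TATA box match, spelled TATAAA, lay from 59484624 to 59484629 and started at -29 from the first transcribed base. The same letters are found in 12.4% of RefSeq promoters over this window. The KLF/SP box matched on the minus strand from 59484610 to 59484615, and 32.7% of promoters hold it. The core of NFAT sites, GGAAA, matched from 59484506 to 59484510 on the minus strand and occurs in 55.6% of promoters. Its longer form TGGAAA, which overlaps the core, had no match and occurs in 18.6% of them.

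No other motif searched for had a match in these 250 bases. For TCF/LEF factors, partners of the Wnt pathway, the letters CTTTGA occur in 13.8% of promoters and the variant CTTTGT in 16.5%. For STAT factors, which act after cytokine signals, the spaced motif TTCNNNGAA occurs in 7.02% and its shorter form TTCNNGAA in 7.17%. For RUNX factors the motif TGTGGT occurs in 14.0% of promoters, and for AP-1 the motif TGANTCA occurs in 6.75%. The ETS motif was spelled GGAAGT and is held by 19.7% of promoters. The second KLF/SP motif, CACCC, is held by 52.0%, and the E box was CANNTG, found in 66.2%. For GATA factors the letters AGATAA occur in 9.99% of promoters.

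The central 300 bases of both higher peaks are shown to set their motifs side by side. Capitals mark a match on either strand to a TCF/LEF, STAT, RUNX, AP-1 or ETS motif, to the first KLF/SP box or to the TATA box. The windows are chr2:59474400-59474699 and chr2:59527723-59528022, plus strand of GRCm38.p6.
Higher peak, 10.1 kb upstream: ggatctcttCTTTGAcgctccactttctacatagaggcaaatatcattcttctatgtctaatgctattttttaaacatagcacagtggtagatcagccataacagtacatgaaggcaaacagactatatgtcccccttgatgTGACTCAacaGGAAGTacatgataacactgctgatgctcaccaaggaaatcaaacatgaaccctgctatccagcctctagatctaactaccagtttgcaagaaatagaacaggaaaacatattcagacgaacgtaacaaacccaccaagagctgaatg
Higher peak, 43.2 kb downstream: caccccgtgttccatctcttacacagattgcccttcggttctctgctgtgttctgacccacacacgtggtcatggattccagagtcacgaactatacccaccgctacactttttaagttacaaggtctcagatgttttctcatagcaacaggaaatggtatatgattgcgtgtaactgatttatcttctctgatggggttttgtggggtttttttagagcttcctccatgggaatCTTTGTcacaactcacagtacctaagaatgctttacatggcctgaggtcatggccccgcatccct

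The higher upstream peak matched the first TCF/LEF motif, the AP-1 motif and the ETS motif at 1 place each. The higher downstream peak matched the second TCF/LEF motif at 1 place. Over all 10 peaks, the first TCF/LEF motif was in 4 and the second in 3, where 25.1% and 24.7% of the same central window of 23908 listed peaks hold them. The AP-1 motif was in 4 of the 10 (10.3% of listed peaks) and the RUNX motif in 3 (34.3%). The NFAT core was in 9 (62.4% of listed peaks), while its longer form (20.3%) was in none. The spaced STAT motif TTCNNNGAA was in 1 (8.82% of listed peaks) and its shorter form (7.56%) in none. A match is a run of letters and shows no binding, and a missing one says only that those letters are not in the window.

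RNA of the genes around *Dapl1* moved in both directions. RefSeq placed 12 genes with a start site within 500 kb, of which 6 were listed in the RNA-seq data and 5 were tested. Of the 5, 1 was called higher and 2 lower, where 10.5% and 7.05% of all tested genes were, and their median log2 difference was -0.39, against -0.00018 over all tested genes. With so few genes, nothing is read from these counts. *Tanc1*, a scaffold protein gene that starts 127 kb downstream, had 16132, 15590 and 17475 normalized counts in WT and 9265, 9776 and 8403 in UTX TCD libraries. It fell by 0.84 on the log2 scale (SE 0.07, adjusted p = 1.94e-05 from limma). *Ccdc148*, which starts 324 kb upstream, fell from 226 ± 23.2 to 76.1 ± 27.2, a log2 difference of -1.62 (SE 0.28, adjusted p = 0.00174 from limma). *Wdsub1*, 398 kb downstream, rose from 664 ± 28.7 to 991 ± 56.0, a log2 difference of 0.58 (SE 0.09, adjusted p = 0.00084 from limma) that a 1.5-fold limit no longer calls.

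*Pkp4*, which encodes a plakophilin of cell junctions, starts 324 kb upstream and was not called. It had 6019 ± 535 in WT and 5620 ± 1523 in UTX TCD cells. The pseudogene *Gm13552*, 80.0 kb downstream, was not called either, with 79.9 ± 33.2 in UTX TCD cells and between 92.3 and 106 in the WT libraries. *5330411J11Rik*, the listed gene nearest to *Dapl1* on its upstream side, was at 0 in all 6 libraries. None of the called neighbours had a difference as low as that of *Dapl1*. Within 1000 kb the calls were 2 higher and 3 lower of 10 tested (10.5% and 7.05% over all tested genes), *Acvr1*, an activin receptor gene, being called higher and *Ly75*, an endocytic receptor gene, lower; the call of *Ly75* was lost with the same total per library.

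Listed peaks within 500 kb of the start site numbered 21, and 11 of them carried other names, 5 lower and 6 higher, with a median difference of 0.39, where 31.2% of all listed peaks were lower. *Tanc1* had 3 lower and 3 higher peaks. Its lowest, from 59575280 to 59575680, had 6.78 in WT and 4.90 in UTX TCD cells (difference -1.89) and was the listed peak next to the outermost downstream *Dapl1* peak. On the other side, the peaks from 59346444 to 59346844 and from 59401897 to 59402297, named for *5330411J11Rik*, had differences of -1.07 and -0.81. With the exception of the 2 higher *Dapl1* peaks, the listed peaks from 59346444 to 59575680 were lower in UTX TCD cells. *Ccdc148*, whose RNA fell, had a single listed peak, and it was higher, from 4.68 to 6.13. Both peaks named for *Pkp4* were higher, at 0.45 and 0.68, and *Wdsub1* had none. The peak from 59346444 to 59346844, named for *5330411J11Rik* and lower at -1.07, also lies in an intron of *Pkp4*.

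In the NFAT pathway, 34 of 38 listed genes were tested, and 3 were called higher and 2 lower, against 10.5% and 7.05% of all tested genes. The median log2 difference of the 34 was 0.04, and 0.11 with every library scaled to the same total, which put the median of all tested genes at 0.06. None of the 4 tested NFAT factors was called by limma, edgeR or DESeq2. All 4 had an adjusted p under 0.05 from limma (unadjusted, also 4) and missed only the limit on the log2 difference. By adjusted p alone, 2924 of the 14459 tested genes were higher and 2963 lower. *Nfatc2*, the factor to which *Dapl1* has been linked, had 13173, 11175 and 13447 normalized counts in WT and 9342, 9552 and 9657 in UTX TCD libraries. The genotypes did not overlap, as in the 26.1% of tested genes with every UTX TCD library below every WT library. The log2 difference of -0.40 (SE 0.07, adjusted p = 0.00168 from limma) was short of the limit for a call. *Nfatc3*, at 79253 ± 2734 and 64084 ± 1275, had a log2 difference of -0.31, and *Nfatc1*, at 37259 ± 1201 and 31995 ± 127, one of -0.22. *Nfat5*, which responds to osmotic stress and not to calcineurin, was at 0.20. Per kilobase of exon, *Nfatc3* was the most abundant factor in both genotypes, with 8762 and 7085. *Nfatc4* was too low to test.

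Calcineurin subunits and inhibitors gave no call, where limma called 10.5% of all tested genes higher and 7.05% lower. By adjusted p alone, 2924 of the 14459 tested genes were higher and 2963 lower. Of the 4 calcineurin subunits, 3 had an adjusted p under 0.05 from limma (unadjusted, also 3) with a log2 difference short of the limit, and none was called by limma, edgeR or DESeq2. The catalytic subunit *Ppp3ca* had a log2 difference of 0.40 and *Ppp3cc* one of -0.43; without UTX TCD replicate 3 that of *Ppp3cc* was -0.54 and past the call. *Ppp3cb* was at 0.04 and the regulatory subunit *Ppp3r1* at -0.22. Of the 9 tested inhibitors, 3 had an unadjusted and 1 an adjusted p under 0.05 from limma, none was called by these tools, and the median log2 difference was 0.04. *Rcan1*, itself an NFAT target that restrains calcineurin, had 1693 ± 61.1 and 1736 ± 34.7.

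The calls of the pathway all lay among its 17 tested targets, 3 higher and 2 lower, where 10.5% and 7.05% of all tested genes were. The median log2 difference of the targets was 0.30, against -0.00018 over all tested genes. *Nr4a2*, an orphan nuclear receptor gene, rose from 340 ± 126 to 1030 ± 260, and *Tox2*, a relative of the exhaustion factor *Tox*, from 64.9 ± 0.706 to 209 ± 25.2. Their log2 differences were 1.63 (SE 0.25, adjusted p = 0.000935 from limma) and 1.66 (SE 0.17, adjusted p = 9.72e-05). *Irf4*, a factor induced by receptor signaling, was called at 0.62 (SE 0.18, adjusted p = 0.0212). That call was lost without WT replicate 1, WT replicate 3 or UTX TCD replicate 3, at 0.49, 0.51 and 0.52, and with edgeR and DESeq2, at 0.45 and 0.46, which lack WT replicate 1 as well. *Havcr2*, which encodes the inhibitory receptor TIM-3, fell from a low 18.0 ± 3.62 to 3.05 ± 0.731 (log2 difference -2.23, SE 0.43, adjusted p = 0.00301 from limma). Its UTX TCD libraries held 1, 4 and 5 reads, the first under the floor of 3 reads. *Havcr2* passed the filter on low counts only through its WT libraries. With a pseudocount of 5 its log2 difference was -1.51, so no exact size is read from it. *Pdcd1*, which encodes PD-1, was called lower at -0.69 (SE 0.22, adjusted p = 0.0351), a call that was lost without any of the 3 WT libraries or UTX TCD replicates 1 or 2, with the same total per library and with edgeR. *Tox* itself was at 0.46 (adjusted p = 4.88e-05), short of a call, and was called at 0.53 with the same total per library. Of single libraries left out, WT replicate 2 moved the counts most: without it 5 targets were called higher and 1 lower, *Egr2* and *Lag3* being added. The effector cytokine genes *Il2* and *Il4* were too low to test, *Ifng* had 21.5 ± 11.0 and 16.3 ± 13.5, and *Tnf* had a log2 difference of 0.30, short of a call.

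Peaks of these genes, like those of *Dapl1*, had both directions. The 31 pathway genes with a listed peak had 144, of which 44 were lower and 100 higher (30.6% lower, against 31.2% of all listed peaks); those named here are single examples. *Nfatc2* had 13 listed peaks, 4 lower and 9 higher, with differences from -1.73 to 1.35. *Nfatc1* had 6 lower and 2 higher, the lowest at -2.61. All 12 listed peaks of *Ppp3ca* and all 4 of *Nr4a2* were higher. *Ifng* had 8 lower and 1 higher, although its RNA was near the limit of what was tested.

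Of 20 genes of naive and central memory T cells, the populations in which *Dapl1* is usually found, all were tested, and 3 were called higher and 1 lower, near the 10.5% and 7.05% of all tested genes. The median log2 difference was -0.01, and with the same total per library it was 0.05 and 4 genes were called higher. *Bcl2*, a survival factor, rose from 17731 ± 581 to 43406 ± 5699, a log2 difference of 1.28 (SE 0.08, adjusted p = 6.75e-06 from limma). *Igfbp4*, common in naive cells, rose from 29724 ± 4319 to 70879 ± 10650, a log2 difference of 1.25. *Bach2*, a repressor of effector genes, was called higher at 0.59 (SE 0.05, adjusted p = 3.03e-05). *Il6ra*, the IL-6 receptor chain, fell from 30824 ± 3629 to 19198 ± 285, at -0.68 (SE 0.08, adjusted p = 0.000172).

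The other 16 of these genes were not called. *Tcf7*, which encodes TCF1, and *Ccr7*, a lymph node homing receptor gene, had log2 differences of -0.07 and -0.08. *Klf2*, a factor for lymphoid homing, its target *S1pr1*, *Klf3* and *Actn1* lay between -0.46 and -0.41, just short of the limit, and their genotypes did not overlap, as in the 26.1% of tested genes with every UTX TCD library below every WT library. *Lef1* was at 0.38 and *Foxp1* at 0.33 (adjusted p = 0.00517 and 0.000417 from limma). *Il7r*, the IL-7 receptor chain, had 79127 normalized counts in WT replicate 2 and between 37105 and 40509 in the other 5 libraries, so its WT mean rests on that library. Without WT replicate 2, 5 of the 20 were called higher, *Id3* and *Myb* being added; *Myb* was also called without UTX TCD replicate 1 or 2 and with the same total per library.

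**Figure D3:**
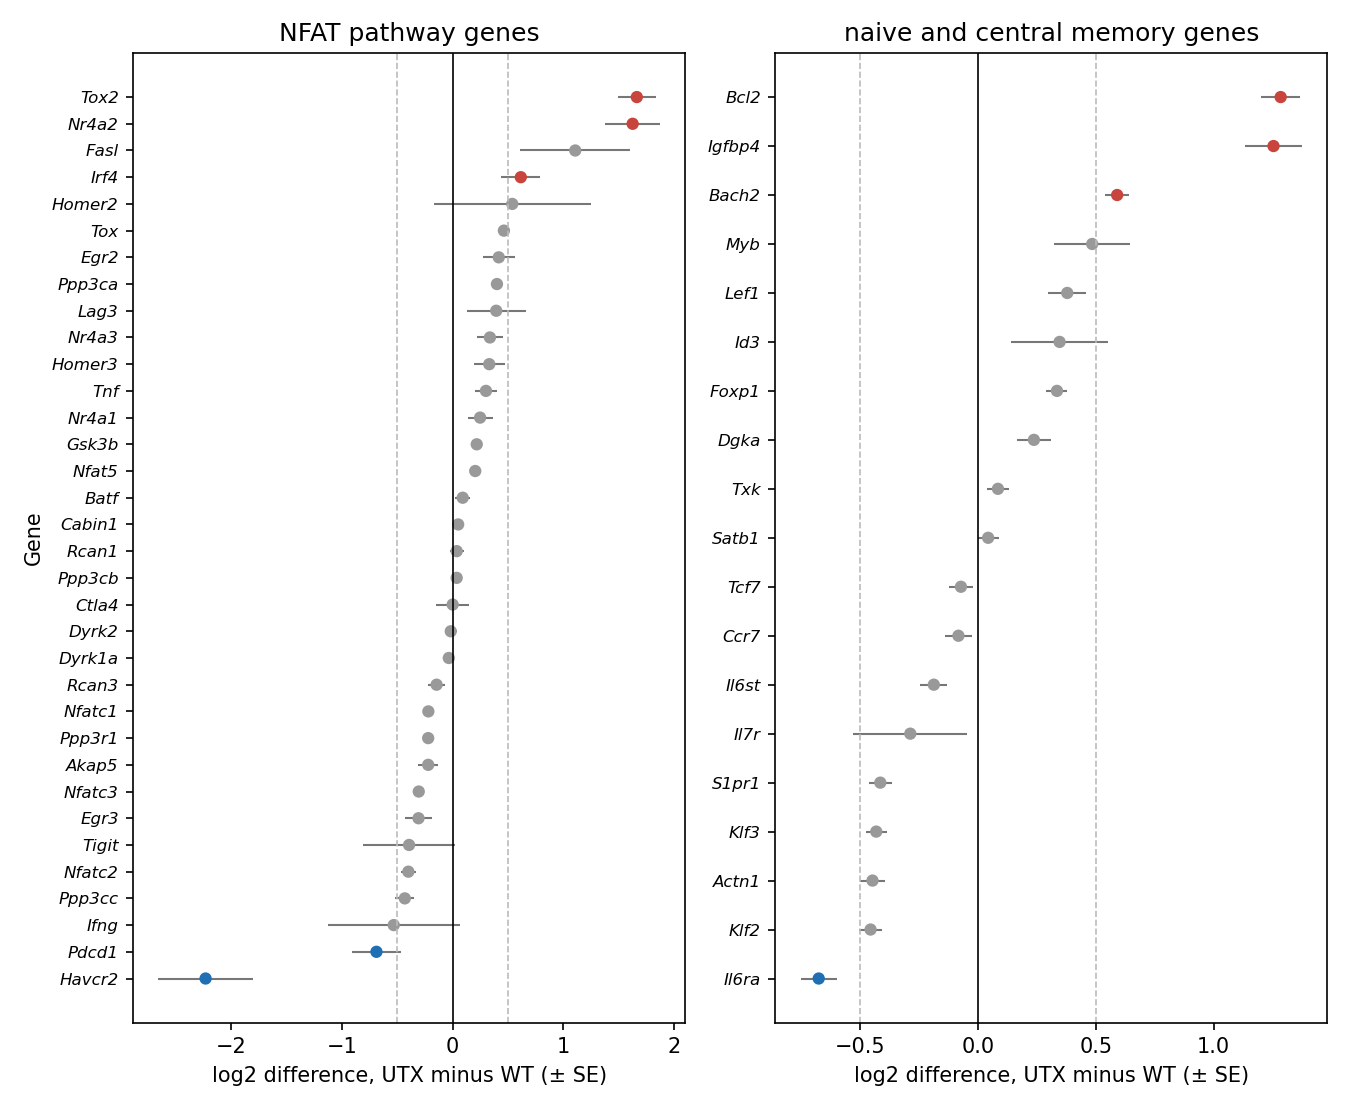
Log2 difference (UTX TCD minus WT, x axis, error bars SE) of tested genes of the NFAT pathway and of the naive and central memory list, with dashed lines at the limits of -0.5 and 0.5; red points were called higher, blue points lower and grey points were not called. In the NFAT pathway *Tox2* at 1.66 and *Havcr2* at -2.23 lie at the ends, and in the other list *Bcl2* at 1.28 and *Il6ra* at -0.68. *Havcr2* had 1, 4 and 5 reads in UTX TCD libraries, and its difference is -1.51 with a pseudocount of 5.

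*Dap*, the paralogue of *Dapl1*, had 6632, 5617 and 6735 normalized counts in WT and 7882, 7787 and 7422 in UTX TCD libraries. The log2 difference was 0.29 (SE 0.07, adjusted p = 0.0111 from limma), short of a call. Per kilobase of exon *Dap* had 4273 in WT and 5197 in UTX TCD cells, so *Dapl1* exceeded it in WT and was below it in UTX TCD cells. *Dap* had 4 listed peaks, 2 lower and 2 higher (31.2% lower over all listed peaks). None of the 10 genes of autophagy and its control, *Dap* included, was called by limma, edgeR or DESeq2. Over all tested genes, limma called 10.5% higher and 7.05% lower. Of the 10, 6 had an adjusted p under 0.05 from limma (unadjusted, also 6) and missed only the limit on the log2 difference. By adjusted p alone, 2924 of the 14459 tested genes were higher and 2963 lower. The median log2 difference of the 10 genes was -0.10, and -0.04 with the same total per library. *Atg5*, needed to form autophagosomes, was at -0.37, and *Rptor*, the mTORC1 subunit, at -0.30. *Mtor* was at 0.07.

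The 8 tested genes whose pattern over the 6 libraries was most like that of *Dapl1* were taken by the smallest root mean square difference of their centered log2 values, which ran from 0.136 to 0.237. In order they were *Nfam1*, *Lgals1*, *Adgrg5*, *Plxdc1*, *Rnf144a*, *Zan*, *Plekha6* and *Bend7*. *Nfam1*, which encodes a membrane protein with an ITAM, had 306, 205 and 286 normalized counts in the WT libraries and 20.8 ± 3.89 in UTX TCD cells, from 11, 26 and 23 reads. *Lgals1*, which encodes galectin-1, had 11700, 8513 and 11074 in WT and 828, 766 and 773 in UTX TCD libraries. *Adgrg5*, an adhesion receptor gene, had 23605, 21953 and 21297 in WT and 2130, 2007 and 2287 in UTX TCD libraries.

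The remaining 5 genes had log2 differences from -3.78 for *Zan*, which encodes the sperm protein zonadhesin, to -3.16 for *Plekha6*. Per kilobase of exon in WT, *Dapl1* at 30268 exceeded all 8, the next being *Lgals1* at 13036 and *Adgrg5* at 7231. Ranking by Pearson's r, which ignores size, kept only *Plekha6* among the first 8 of these, and 204 genes had r over 0.99. Of the 8 genes, 6 had listed peaks, 9 in all, 7 lower and 2 higher (31.2% lower over all listed peaks), and none had as many as *Dapl1*. The genes were chosen for an RNA pattern like that of *Dapl1*, so nothing is read from this share. *Lgals1* had 2 peaks, both lower, the lowest at -1.04, and *Bend7* and *Zan* had 1 each, at -1.52 and -1.42. *Nfam1* had 1 lower and 2 higher peaks, and *Rnf144a* and *Plekha6* had none.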

How the data were processed

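RNA-seq values were deposited as normalized counts per gene (a signal that is never negative), which the authors made with FastQC, HISAT2 2.2.1 on mm10, featureCounts and 1 DESeq2 size factor per library; annotation and strand setting were not given in the sources used here. ATAC-seq reads were trimmed with Cutadapt and aligned with Bowtie2 to mm10, and peaks were called with MACS2 and compared with DiffBind; the authors deposited mean log2 concentrations per genotype. The deposited FDR (p-value) column was read only to test that every listed peak was under 0.05. Fold change and p-value columns of the authors' own comparisons were not used.

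Groups and replicate numbers came from the labels. Log2(normalized count + 1) was fitted with limma 3.58.1 (trended eBayes, genotype only) in R 4.3.3 over 14459 of 25860 genes with a mean of at least 10, with Benjamini-Hochberg adjustment over all of them. The test was checked on simulated data. Dividing by the smallest step gave whole reads for 100% of values (tolerance 0.01). edgeR 4.0.16 and DESeq2 1.42.0 were run on the reads of 5 libraries, without WT replicate 1. A check for unscaled values did not accept a step as near to 1 as that of this library, 0.991. Its values were nonetheless whole multiples of that step. The choice to leave it out was made after seeing the data. Named genes were *Dapl1*, *Dap*, sort and lineage markers, all neighbours, NFAT factors, calcineurin subunits, called members of lists and the 8 genes most alike; other genes named were chosen after their values were seen. The gene and the lists were chosen with earlier results of these data known. Exon lengths, positions and sequences are from RefSeq (GRCm38.p6), and a motif window was read for 23908 of 23932 peaks. Pairs of libraries differed by more than counting noise. Some genes and a peak sequence are not reported here.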

Additional observations from a re-analysis of the deposited data

How the results depend on the processing

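The log2 difference of *Dapl1* lay between -3.66 and -3.45 when single libraries were left out, and was -3.55 to -3.56 with other pseudocounts or filters, -3.50 with the same total per library, -3.49 with edgeR and -3.48 with DESeq2. A fit with the replicate number as a block (replicate block) gave -3.56 and 1484 genes called higher and 990 lower; same-numbered libraries had residual correlations of 0.31, -0.20 and 0.09, so the numbers were not taken to pair the samples. With each library left out, 1317 to 1540 genes were called higher and 847 to 1030 lower. With the same total per library 1727 were higher and 853 lower, with a filter at 50 the counts were 1209 and 856, and with no filter 1626 and 1129. Without WT replicate 1, edgeR called 1267 higher and 870 lower, and DESeq2 1310 and 822.

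With no limit on the log2 difference, calls by adjusted p alone were 2924 higher and 2963 lower over all genes, 10 and 7 in the NFAT pathway, 7 and 6 among naive and central memory genes and 2 and 4 among autophagy genes. Of the neighbours, 0 were called higher with a 1.5-fold limit; 2 were higher within 1000 kb, and 0 higher and 1 lower within 250 kb. NFAT pathway calls were 4 higher and 1 lower with the same total per library, 3 and 1 with a filter at 50, 2 and 1 with edgeR and 2 and 2 with DESeq2; naive and central memory genes had 4 higher with the same total per library. Leaving out single libraries gave 2 to 5 higher and 1 to 3 lower in the NFAT pathway and 3 to 5 higher among naive and central memory genes; in the latter 1 was lower each time. Of the 10 *Dapl1* peaks, 4 differed by more than 1, all lower, and those past 0.5 had a median difference of -0.99. Pearson's r kept 1 of the 8 genes most like *Dapl1*. Calls were followed over 14 alternatives in 112 tested genes, namely members of the lists, neighbours, markers and the 8 genes most like *Dapl1*. Over the 1556 values available, 29 calls were lost, 15 gained and 0 reversed. Genes under a mean of 50 had no value with that filter. The calls of *Havcr2*, *Csf1r*, *Ms4a1* and *Zbtb7b* that it removed are therefore not in these counts. Causes were not tested. ATAC-seq values had no spread per library, and UTX TCD replicate 1, the shallowest RNA-seq library, limits the precision of genes near 10 normalized counts.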
